A study of Mus musculus with 12 samples.

Results

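Microglia, the resident macrophages of the central nervous system, were examined for the RNA of 40 type I interferon stimulated genes in a mouse model of multiple sclerosis. The genes were listed by symbol, and their Ensembl identifiers were matched in GENCODE release M21. They are 40 of the 48526 genes counted, and 39 of them were among the 12545 genes with enough reads to be tested. The exception was Ifit3b, which held 16, 47, 8 and 22 counts over the 3 libraries of control, acute, remission and chronic mice.

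The 12 libraries came from 12 Biozzi ABH mice, a strain in which experimental autoimmune encephalomyelitis (EAE) runs a chronic-relapsing course. They form 4 groups of 3 mice: controls, and mice with chronic-relapsing EAE taken in the acute phase, in remission or in the chronic phase. Spinal cord cells carrying CD11b, an intermediate level of CD45 and no Ly-6C were sorted as microglia. Age, sex, how EAE was induced, how the controls were treated and the day of each phase were not given in the sources used here. Values of a group are listed in a fixed order of its 3 mice (replicates 1, 2 and 3), which pairs no mice across groups.

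Type I interferons are secreted alarm proteins, made when a cell detects foreign or misplaced nucleic acid. They bind a receptor of the chains IFNAR1 and IFNAR2, whose kinases JAK1 and TYK2 set off assembly of the complex ISGF3. This complex, which holds STAT2 and IRF9, binds interferon stimulated response elements (ISRE) and switches on antiviral genes. Interferon gamma acts through another receptor, on elements called GAS, and many antiviral genes answer to both. In the central nervous system microglia both make and answer type I interferon, and interferon beta has been used to treat multiple sclerosis.

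The promoters of the members were read for both elements. RefSeq (GRCm38.p6) promoters, 250 bases before to 50 bases after the transcription start, were found for 30 of the 40 members. They were not found for Usp18, Oas2, Dhx58, Ifi204, Mx1, Mx2, Rtp4, Parp9, Parp14 and Ifi27l2a. The core of the ISRE, searched on both strands as GAAA, any 2 bases and GAAA again, was in the window of 15 of the 30 members (50%), against 3.99% of 27025 genes. The letters TTCNNNGAA of the GAS were in 7 of 30 (23.3%), against 9.55% of genes. Overlapping matches were counted separately, and 9 members held more than 1 match of the ISRE letters. Of the 20 matches before the start, the nearest began 12 and the farthest 188 bases before it, with a median of 76.5. A match is a description of the letters and not a measured binding site. The stretches below are the 200 bases before the start, 5′ to 3′ on the strand of the gene, with the ISRE letters in capitals. They are shown because Isg15 held the most matches, 3 that overlap, because Ifit1, Ifit3 and Ifit3b, and likewise Oas1a and Oas1g, carry the same letters in neighbouring genes, and because Oasl2, higher than control in each phase below, had none.
Isg15 chr4:156200819-156201018, minus strand: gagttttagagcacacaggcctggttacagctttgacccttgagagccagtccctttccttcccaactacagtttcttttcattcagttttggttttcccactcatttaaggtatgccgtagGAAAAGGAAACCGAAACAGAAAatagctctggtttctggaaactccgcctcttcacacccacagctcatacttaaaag
Ifit1 chr19:34640689-34640888, plus strand: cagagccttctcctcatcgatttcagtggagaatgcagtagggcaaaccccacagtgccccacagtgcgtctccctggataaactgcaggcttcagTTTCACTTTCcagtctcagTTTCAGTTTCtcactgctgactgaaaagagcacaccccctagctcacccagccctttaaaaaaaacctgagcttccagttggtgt
Ifit3 chr19:34583329-34583528, plus strand: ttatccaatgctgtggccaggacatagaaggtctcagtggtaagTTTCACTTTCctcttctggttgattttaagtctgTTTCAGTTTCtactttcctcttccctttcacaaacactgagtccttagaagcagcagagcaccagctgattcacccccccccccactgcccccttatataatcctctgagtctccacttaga
Ifit3b chr19:34607757-34607956, plus strand: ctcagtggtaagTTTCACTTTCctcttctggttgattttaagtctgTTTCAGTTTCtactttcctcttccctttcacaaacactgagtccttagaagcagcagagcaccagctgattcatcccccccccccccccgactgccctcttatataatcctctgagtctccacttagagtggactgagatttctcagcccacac
Oas1a chr5:120907526-120907725, minus strand: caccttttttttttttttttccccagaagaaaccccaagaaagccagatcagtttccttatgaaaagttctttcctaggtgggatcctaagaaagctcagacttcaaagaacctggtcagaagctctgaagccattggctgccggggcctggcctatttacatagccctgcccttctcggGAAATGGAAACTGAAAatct
Oas1g chr5:120887614-120887813, minus strand: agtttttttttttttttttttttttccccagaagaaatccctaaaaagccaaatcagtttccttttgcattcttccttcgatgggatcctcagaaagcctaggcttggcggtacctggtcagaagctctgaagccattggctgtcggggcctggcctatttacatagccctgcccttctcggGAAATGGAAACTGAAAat
Oasl2 chr5:114896734-114896933, plus strand: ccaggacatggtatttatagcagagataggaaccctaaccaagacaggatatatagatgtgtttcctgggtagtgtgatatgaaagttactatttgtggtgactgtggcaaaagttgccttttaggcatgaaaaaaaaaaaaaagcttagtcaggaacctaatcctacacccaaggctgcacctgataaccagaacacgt

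In Ifit1, Ifit3 and Ifit3b the capitals read TTTCACTTTC and TTTCAGTTTC in that order, which are the ISRE letters on the opposite strand. They began 104 and 85 bases before the start in Ifit1, 156 and 122 in Ifit3, and 188 and 154 in Ifit3b. The Oas1a and Oas1g windows shared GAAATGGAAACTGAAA close to the start. Among the windows with no match were those of Ifit2, Lgals3bp, Ifi44, Rnf213 and Samd9l, which says only that these letters are not in these 300 bases. The tested members with the letters had a median log2 difference between acute and control of 2.84 (14 members), those without 2.07 (15 members), and the 2 ranges, each starting at 0.51, overlapped almost fully.

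Total counts per library ran from 3992885 to 5712376, of which 48.4 to 64.1% fell on 6 features, so that 1266782 to 2496096 counts outside these features and the mitochondrial genes set the precision. The acute libraries differed from the others in cell markers. Ly6c2, which encodes the Ly-6C that the sort selected against, had 0 counts in control and 76.5, 74.6 and 42.7 CPM, counts scaled to library size, in the acute mice. Its values in remission and chronic mice were at most 0.797 CPM. The sum of 10 genes of monocytes and recruited macrophages was 6.26, 8.24 and 39.9 CPM in control mice, 2165, 1838 and 1475 in the acute phase, 15.9, 4.59 and 4.52 in remission and 17.9, 6.66 and 16.8 in the chronic phase. Each of the 9 of these genes that could be tested rose in the acute phase. The sum of 10 homeostatic microglia genes was 6790.0 to 7707 CPM in control mice, 1028 to 1787 in the acute phase, 4916 to 4994 in remission and 4614 to 5067 in the chronic phase, and all 10 fell in the acute phase. Fcrls and Olfml3, which help to define microglia, were almost absent there, at 0, 0.799 and 0.296 CPM and 2.08, 3.996 and 5.33 CPM. Neutrophil genes (9) summed to 114.1 to 392.7 CPM and T and NK cell genes (9) to 48.6 to 82.0 CPM in acute mice, against at most 54.5 and 2.95 in the other groups, and in control Cd3e, Cd4, S100a8, S100a9, Chil3 and Ly6c2 were at 0. Genes of plasmacytoid dendritic cells (7), known as strong makers of type I interferon, summed to 105 to 111.5 CPM in control and 49.8 to 62 in acute mice, nearly all of it Tcf4, while Ly6d, Klk1 and Spib stayed at or under 0.554 CPM in every library. B cell genes (4) summed to at most 5.58 CPM. Ptprc, which encodes CD45, did not pass the test between acute and control (log2 fold change 0.01 ± 0.13, adjusted p = 0.966), and Itgam, which encodes CD11b, was lower in acute mice (log2 fold change -0.62 ± 0.21, adjusted p = 0.029). In a bulk library fewer cells of a type and less RNA per cell cannot be told apart. The part of these cells in the acute values below was not tested.

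The summed level of the 40 members was 654, 572 and 731 CPM in control mice (mean 652 ± 79.6, SD, n = 3) and 3668, 3131 and 2473 in acute mice (3090.0 ± 598). It was 891, 860.3 and 1258 in remission (1003 ± 221) and 1148, 994 and 1542 in chronic mice (1228 ± 283). Every acute library stood above all others, and every remission and chronic library stood above every control library, while remission and chronic overlapped. A few abundant genes carry this sum. Rnf213, a giant ubiquitin ligase, gave 33.1% of it in control and 29.4, 26.7 and 25.99% in acute, remission and chronic mice. Lgals3bp, a secreted glycoprotein that binds galectin-3, gave 8.49, 11.1, 22.6 and 21.9%. Without both, a check chosen after these shares were seen, the sum was 379, 339 and 426 CPM in control mice, 2365, 1761 and 1394 in the acute phase, 437, 437 and 652 in remission and 540, 546 and 833 in the chronic phase. The order of the groups was as before, and the chronic and remission libraries still all stood above control under this scaling. The scaling factors of control replicate 1, remission replicates 1 and 2 and chronic replicate 2 were 1.41, 1.04, 1.11 and 0.976. With library totals as the sole scaling, this smaller sum in those remission libraries lay below control replicate 1, and chronic replicate 2 was level with it.

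**Figure D1:**
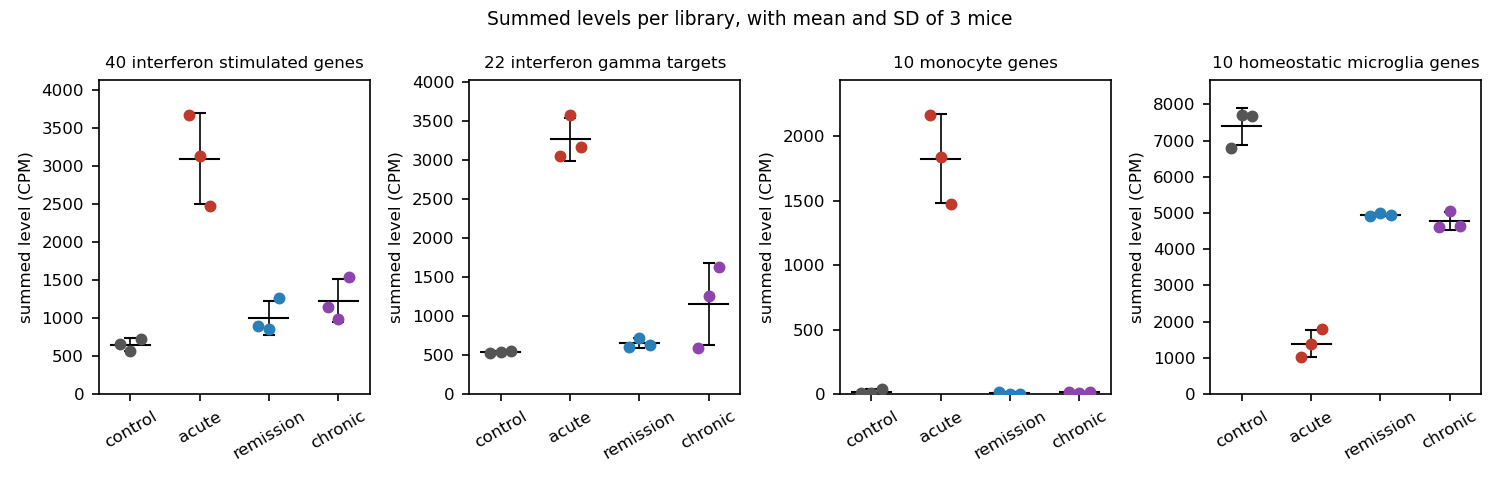
Summed level in CPM (counts scaled to library size; linear axes from 0) of the 40 interferon stimulated genes, 22 interferon gamma targets, 10 genes of monocytes and recruited macrophages and 10 homeostatic microglia genes. Points are single mice, bars the mean and SD of 3 mice; the 3 acute mice, at 2473 to 3668 CPM, stand above all other mice for the interferon stimulated genes, and the same mice stand apart for both sets of marker genes.

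Acute EAE brought a broad rise. Against control, 35 of the 39 tested members were higher in acute mice and 0 were lower at an adjusted p under 0.05, where 23.7% of all tested genes were higher and 20% lower. The median log2 difference of the members was 2.43, against 0.02 for all tested genes. It ran from 0.46 ± 0.26 (SE) for Mx2 to 6.97 ± 0.96 for Oas3, with Ifitm2, which had no counts in control, beyond that. In 36 members every acute mouse stood above every control mouse, which held for 30% of all tested genes. The 4 members that missed the threshold were Ddx58, Mx2, Isg20 and Ifi35. Of all genes called in this comparison 54.3% were higher, and 22.8% with library totals as the sole scaling, which moved the median of all genes by -0.56; under that scaling 34 members were higher and 0 lower. For the count of 0, DESeq2 and limma-voom also found 0 members lower, and 0 were lower at an unadjusted p under 0.05.

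**Figure D2:**
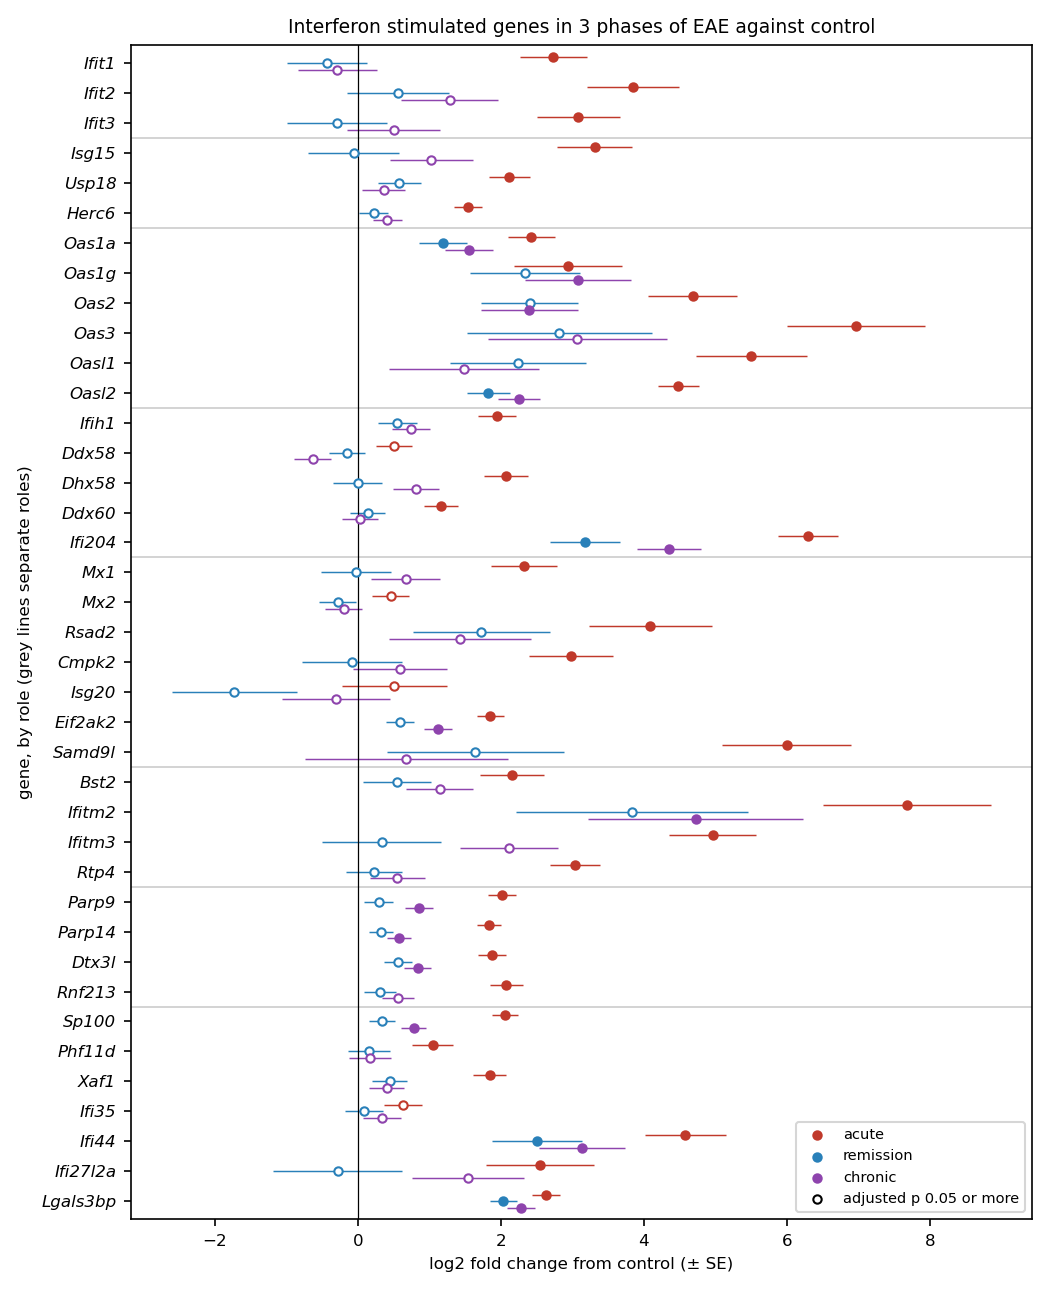
Log2 fold change from control (x axis, with SE) of the 39 tested genes (y axis, ordered by role) in acute, remission and chronic mice, 3 mice per group. Filled points passed an adjusted p of 0.05 in edgeR: 35 acute, 5 remission and 13 chronic; the acute point is the farthest to the right for all genes but Oas1g. The Ifitm2 points rest on 0 control counts and depend on the prior count of the fit.

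Remission was marked by a fall from the acute level. Against acute, 36 of 39 members were lower in remission (19.4% of all tested genes were) and 0 were higher (17.6%), with a median log2 difference of -2.07. In 34 members every remission mouse lay below every acute mouse, which held for 24.9% of all tested genes. The 3 others not called were Oas1g, Ddx58 and Ifi35. Against control, 5 members were still higher in remission, Lgals3bp, Oasl2, Ifi204, Ifi44 and Oas1a, and 0 were lower, where 6.06% of all tested genes were higher and 3.25% lower. By edgeR at an unadjusted p under 0.05, 11 were higher and 0 lower, and DESeq2 and limma-voom found 9 and 6 higher and 0 lower. The median of all 39 was 0.34 above control, and 29 of 39 had a fitted value above 0. In 13 members every remission mouse stood above every control mouse, which held for 14.4% of all tested genes. Of all genes called here 65.1% were higher, and 32.6% with library totals alone. Under that scaling 5 members were higher, Oas2 in place of Oas1a, and the median of all 39 was 0.10.

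In the chronic phase 13 members were higher than control and 0 lower, where 9.57% of all tested genes were higher and 5.17% lower. They were the 5 of remission together with Oas1g, Oas2, Eif2ak2, Ifitm2, Parp9, Parp14, Dtx3l and Sp100, and the median of the 39 was 0.81. Of all genes called here 64.9% were higher, and 21.7% with library totals alone, where 9 of the 13 were still called and the median of the members was 0.43. At an unadjusted p under 0.05 the count was 19 higher and 1 lower, the latter being Ddx58, and DESeq2 and limma-voom found 17 and 11 higher and 0 lower. Every chronic mouse stood above every control mouse in 19 members (16.5% of all tested genes) and below in Ddx58 alone (15.8%). Against acute, 32 members were lower in the chronic phase (15.5% of all tested genes) and 0 higher (13.3%), with a median of -1.44. Between chronic and remission 0 members were called in edgeR (0.941% of all tested genes were higher and 0.263% lower), although 31 of 39 fitted values were above 0, with a median of 0.32. At an unadjusted p under 0.05, 6 members were higher in the chronic phase, Ifi204, Parp9, Eif2ak2, Sp100, Dhx58 and Ifitm3, and 0 were lower. Every chronic mouse lay above every remission mouse in 5 members (9.42% of all tested genes) and below in 1 (8.42%). DESeq2 called 1 member, Ifi204, and limma-voom 0. The comparisons with control share the control mice, so these counts are not independent of each other.

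The IFIT proteins, which bind foreign RNA and block its translation, rose in the acute phase and were not called different from control afterwards. Their genes lie side by side on chromosome 19 (GRCm38, 34550694 to 34650009, plus strand). Ifit2 stood at 7.397, 5.96 and 7.98 CPM in control mice, 174, 87.1 and 44.8 in the acute phase, 6.28, 6.504 and 20.2 in remission and 13.6, 12.6 and 26.5 in the chronic phase. Ifit1 stood at 3.27, 1.75 and 4.96 CPM in control mice, 36.6, 14.1 and 14.8 in the acute phase, 1.85, 1.72 and 3.98 in remission and 1.14, 2.88 and 4.08 in the chronic phase. Ifit3 stood at 4.27, 4.73 and 3.02 CPM in control mice, 66.9, 20.8 and 15.1 in the acute phase, 3.69, 1.72 and 4.78 in remission and 5.45, 3.78 and 8.42 in the chronic phase. For all 3 the lowest acute mouse lay above every mouse of the other groups, and acute replicate 1 lay far above the other 2 acute mice. The acute rise was 3.85 ± 0.64 (log2, SE) for Ifit2 (adjusted p = 0.00119), 3.08 ± 0.58 for Ifit3 (adjusted p = 0.00143) and 2.73 ± 0.47 for Ifit1 (adjusted p = 1.93e-04). In remission 0 of the 3 were called against control, and Ifit1 and Ifit3 had fitted values below it, -0.43 ± 0.56 and -0.29 ± 0.70. Every chronic mouse had more Ifit2 than every control mouse, and the difference of 1.28 ± 0.68 missed the threshold (adjusted p = 0.278). Ifit3b, too low to test, stood at 0.711, 0.3505 and 1.94 CPM in control mice, 8.56, 1.86 and 2.08 in the acute phase, 0.369, 0.383 and 1.06 in remission and 1.82, 1.26 and 1.78 in the chronic phase. Its reads cannot be fully told from those of Ifit3, since 35.7% of the 75-base windows of its transcripts also occur in Ifit3.

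ISG15 is a ubiquitin-like protein, induced by interferon, that is attached to other proteins, HERC6 is the main ligase for it in mice, and USP18 removes it and also damps signalling at the receptor. All 3 rose in the acute phase and none was called different from control later. Isg15 (chromosome 4, 156199424 to 156200818, minus strand) stood at 1.28, 1.58 and 0.863 CPM in control mice, 20.5, 10.9 and 6.52 in the acute phase, 0.923, 0.765 and 2.12 in remission and 1.14, 1.98 and 4.85 in the chronic phase. Usp18 stood at 7.82, 4.03 and 6.69 CPM in control mice, 33.98, 26.6 and 20.4 in the acute phase, 7.199, 9.95 and 10.9 in remission and 5.22, 7.92 and 10.97 in the chronic phase. Herc6 stood at 20.2, 20.1 and 18.6 CPM in control mice, 67.7, 55.95 and 48.02 in the acute phase, 19.9, 18.2 and 31.6 in remission and 21.3, 26.3 and 31.1 in the chronic phase. The acute mice lay above all other mice for each gene, and Isg15 in chronic replicate 3 was above every control and remission mouse. The acute difference was 3.31 ± 0.52 for Isg15 (adjusted p = 3.80e-05), 2.12 ± 0.28 for Usp18 (adjusted p = 4.75e-06) and 1.54 ± 0.20 for Herc6 (adjusted p = 2.32e-06). Isg15 had a chronic difference of 1.02 ± 0.58 with an adjusted p of 0.283, and Herc6 one of 0.41 ± 0.20 with an adjusted p of 0.194, although its 3 chronic mice all lay above control.

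The oligoadenylate synthetases sense double-stranded RNA and make the messenger that activates RNase L, and their relative OASL1 lacks that activity. All 6 genes lie on chromosome 5. All 6 were higher in acute mice, with a median of 4.58, and 4 were higher in chronic mice. Over all tested genes 23.7% were higher in acute and 9.57% in chronic mice. Oasl2 (chromosome 5, 114896936 to 114912234, plus strand) stood at 4.27, 4.03 and 7.98 CPM in control mice, 112, 141 and 101 in the acute phase, 14.4, 20.9 and 21.2 in remission and 26.3, 16.9 and 33.2 in the chronic phase. Oas1a (chromosome 5, 120896256 to 120907521, minus strand) stood at 3.98, 2.103 and 4.75 CPM in control mice, 18.4, 25.04 and 14.5 in the acute phase, 6.64, 7.46 and 10.9 in remission and 10.4, 7.202 and 14.5 in the chronic phase. Oas1g stood at 0.284, 0 and 0.863 CPM in control mice, 4.15, 2.93 and 1.48 in the acute phase, 1.11, 1.34 and 3.45 in remission and 3.63, 2.88 and 3.06 in the chronic phase. In these 3 genes every mouse with EAE, of whatever phase, lay above every control mouse. Taken phase by phase, this held for 30% (acute), 14.4% (remission) and 16.5% (chronic) of all tested genes. Oasl2 was higher than control by 4.48 ± 0.28 in acute (adjusted p = 7.36e-09), 1.82 ± 0.30 in remission (adjusted p = 8.87e-04) and 2.25 ± 0.29 in chronic mice (adjusted p = 7.25e-05). The corresponding values of Oas1a were 2.43 ± 0.33 (adjusted p = 5.08e-06), 1.19 ± 0.34 (adjusted p = 0.0306) and 1.56 ± 0.34 (adjusted p = 0.00274). Oas1g was the 1 member whose mean was highest in the chronic phase, at 3.19 ± 0.392 CPM (SD, n = 3) against 2.85 ± 1.34 in acute mice. Its levels were low, and the chronic and acute mice overlapped (log2 fold change 0.14 ± 0.59, adjusted p = 0.886).

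Oas2 and Oas3 are neighbours on the minus strand, and Oasl1, known to restrain translation of Irf7, lies next to Oasl2. Oas2 stood at 2.13, 0.876 and 3.45 CPM in control mice, 63.04, 62.6 and 37.05 in the acute phase, 9.598, 5.55 and 19.4 in remission and 7.72, 6.66 and 19.9 in the chronic phase. Oas3 stood at 0.711, 0.701 and 0 CPM in control mice, 114, 60.5 and 27.9 in the acute phase, 3.51, 1.15 and 7.44 in remission and 6.58, 1.44 and 6.12 in the chronic phase. Oasl1 stood at 0.711, 0 and 0.647 CPM in control mice, 39.7, 16.5 and 9.48 in the acute phase, 2.03, 1.72 and 3.19 in remission and 2.27, 0.1801 and 1.78 in the chronic phase. Oas3 changed most, from 9 counts over the control libraries to 760 over the acute ones, but its acute mice spread from 27.9 to 114 CPM. The acute differences were 6.97 ± 0.96 for Oas3 (adjusted p = 3.37e-04), 5.50 ± 0.78 for Oasl1 (adjusted p = 8.13e-05) and 4.68 ± 0.62 for Oas2 (adjusted p = 1.67e-04). All remission mice stood above all control mice for the 3 genes, which held for 14.4% of all tested genes. The differences were 2.40 ± 0.68, 2.82 ± 1.29 and 2.23 ± 0.95 for Oas2, Oas3 and Oasl1, none past the threshold (adjusted p = 0.0578, 0.25 and 0.187). In chronic mice Oas2 was higher than control (log2 fold change 2.40 ± 0.68, adjusted p = 0.0418).

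Among the sensors of nucleic acid, Ifi204, a member of the PYHIN family that binds DNA, stood out from the RNA helicases. Ifi204 (chromosome 1, 173747293 to 173766943, minus strand) stood at 0.711, 1.05 and 1.08 CPM in control mice, 85.9, 78.9 and 59.3 in the acute phase, 9.598, 8.61 and 7.17 in remission and 12.9, 13.1 and 33.2 in the chronic phase. The 4 groups did not overlap at all, in the order acute, chronic, remission and control. The difference from control was 6.30 ± 0.42 in acute (adjusted p = 1.71e-08), 3.17 ± 0.49 in remission (adjusted p = 6.05e-04) and 4.35 ± 0.45 in chronic mice (adjusted p = 9.08e-06). The chronic level exceeded that of remission by 1.18 ± 0.33, which missed the threshold (adjusted p = 0.0887), with chronic replicate 3 well above the other 2. Of the 75-base windows of its transcripts, 13.2% recur in other genes, mostly Ifi211, so part of this signal may belong to related genes.

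The helicases moved less. Ifih1, which encodes MDA5, a sensor of long double-stranded RNA, stood at 16.4, 16.8 and 22.7 CPM in control mice, 99.1, 61.3 and 52.8 in the acute phase, 21.8, 23.5 and 36.7 in remission and 39.5, 27.9 and 25.2 in the chronic phase. Dhx58, which encodes LGP2, a partner of MDA5, stood at 9.67, 9.11 and 14.5 CPM in control mice, 62.8, 45.6 and 29.4 in the acute phase, 12.7, 8.04 and 12.2 in remission and 14.98, 15.1 and 28.1 in the chronic phase. Ddx60, another helicase of this pathway, stood at 19.1, 21.2 and 23.1 CPM in control mice, 58.9, 45.8 and 36.5 in the acute phase, 14.9, 20.3 and 35.3 in remission and 19.8, 21.1 and 23.5 in the chronic phase. For each the acute mice lay above all others, with differences from control of 1.94 ± 0.27 (adjusted p = 3.68e-05), 2.07 ± 0.31 (adjusted p = 7.39e-05) and 1.16 ± 0.24 (adjusted p = 8.98e-04). Ddx58, which encodes RIG-I, the sensor of RNA with a free triphosphate end, stood at 26.6, 18.1 and 26.3 CPM in control mice, 45.6, 32.2 and 22.8 in the acute phase, 17.7, 16.6 and 30.3 in remission and 16.1, 13.7 and 16.1 in the chronic phase. It differed from the rest: acute and control mice overlapped (log2 fold change 0.51 ± 0.25, adjusted p = 0.112) and every chronic mouse lay below every control mouse (log2 fold change -0.63 ± 0.26, adjusted p = 0.126). Chronic was below acute by the test (log2 fold change -1.14 ± 0.26, adjusted p = 0.00356).

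A further 7 members act on viruses more directly. Mx1, a GTPase that traps viral particles, stood at 14.2, 10.5 and 20.9 CPM in control mice, 116, 66.6 and 43.9 in the acute phase, 11.3, 10.1 and 24.2 in remission and 25.9, 15.8 and 30.9 in the chronic phase. Rsad2, which encodes viperin, an enzyme that makes a chain-ending nucleotide, stood at 0.569, 1.05 and 2.37 CPM in control mice, 42.02, 14.4 and 8.003 in the acute phase, 4.799, 0.765 and 7.44 in remission and 2.72, 2.52 and 5.101 in the chronic phase. Cmpk2, its neighbour on chromosome 12 and a nucleotide kinase, stood at 2.28, 0.175 and 3.02 CPM in control mice, 24.4, 7.73 and 10.97 in the acute phase, 1.85, 0.765 and 2.66 in remission and 2.497, 3.06 and 2.55 in the chronic phase. In each the acute mice were above all others and acute replicate 1 was highest, with differences from control of 2.33 ± 0.46 (adjusted p = 0.00269), 4.09 ± 0.86 (adjusted p = 0.00323) and 2.98 ± 0.59 (adjusted p = 6.87e-04). Rsad2 in remission spread from 0.765 to 7.44 CPM, and its difference from acute lost its call without acute replicate 1 (adjusted p = 0.117), remission replicate 1 (0.0779), remission replicate 2 (0.0581) or chronic replicate 1 (0.053). This call was also lost with no filter (0.0822), limma-voom (0.0504), only the 2 groups compared (0.133) or the number in the sample title as a covariate (0.0894).

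Samd9l, a restriction factor that blocks translation, stood at 0.569, 0.526 and 0.863 CPM in control mice, 59.7, 42.1 and 24.6 in the acute phase, 0.185, 0.957 and 5.84 in remission and 1.14, 0 and 2.29 in the chronic phase. Eif2ak2, which encodes PKR, the kinase that halts translation on double-stranded RNA, stood at 19.9, 13.8 and 22.7 CPM in control mice, 75.2, 61.3 and 66.7 in the acute phase, 24.2, 29.8 and 30.8 in remission and 39.5, 31.7 and 52.03 in the chronic phase. Samd9l was high in all acute mice and near the control level in all but remission replicate 3 and chronic replicate 3, while Eif2ak2 formed 4 groups with no overlap, in the order acute, chronic, remission and control. The acute difference was 5.996 ± 0.90 for Samd9l (adjusted p = 4.44e-04) and 1.85 ± 0.19 for Eif2ak2 (adjusted p = 2.01e-07). Eif2ak2 was also higher than control in chronic mice (log2 fold change 1.12 ± 0.19, adjusted p = 3.81e-04), and in remission its difference of 0.59 ± 0.20 missed the threshold (adjusted p = 0.0697).

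Mx2 and Isg20 were exceptions to the acute rise. Mx2, annotated as a polymorphic pseudogene in this genome, stood at 20.6, 19.4 and 19.6 CPM in control mice, 40.2, 23.4 and 18.1 in the acute phase, 14.9, 13.01 and 21.8 in remission and 17.03, 13.7 and 21.7 in the chronic phase. Isg20, an exonuclease of single-stranded RNA, stood at 1.99, 0.175 and 2.81 CPM in control mice, 2.59, 3.46 and 0.889 in the acute phase, 0.923, 0.383 and 0 in remission and 1.14, 1.08 and 1.78 in the chronic phase. Acute and control mice overlapped for both, and the differences were 0.46 ± 0.26 (adjusted p = 0.158) and 0.51 ± 0.73 (adjusted p = 0.603). Both were lower in remission than in the acute phase, by -0.74 ± 0.26 (adjusted p = 0.0345) and -2.24 ± 0.87 (adjusted p = 0.0497). The mice overlapped, and the calls lay close to the threshold. That of Mx2 was lost without any 1 of the control mice, acute replicate 1, or remission replicate 1 or 2 (adjusted p from 0.0511 to 0.318). That of Isg20 was lost without any 1 of the chronic mice, control replicate 1 or 3, acute replicate 1 or 2, or remission replicate 2 or 3 (0.0563 to 0.196). In the losses without a control or chronic mouse, outside the comparison, the difference was -0.71 for Mx2 and -2.22 to -2.24 for Isg20. Other settings also lost these calls. For Mx2 they were only the 2 groups compared (adjusted p = 0.0911) and the title number as a covariate (0.0891). For Isg20 they were leaving out the top features (0.0556), limma-voom (0.0919) and the title number (0.106). Library totals alone lost both, as given below.

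Another 4 members act at membranes. Bst2 encodes tetherin, which holds budding virus on the cell, and stood at 3.84, 3.15 and 9.93 CPM in control mice, 26.5, 26.4 and 19.9 in the acute phase, 8.12, 6.696 and 9.297 in remission and 5.22, 11.3 and 19.9 in the chronic phase. Ifitm3, which blocks fusion of virus in endosomes, stood at 0.854, 0.701 and 4.1 CPM in control mice, 66.4, 63.4 and 32.6 in the acute phase, 1.66, 1.91 and 3.19 in remission and 3.405, 6.48 and 13.01 in the chronic phase. Ifitm2, its close relative, stood at 0, 0 and 0 CPM in control mice, 8.04, 3.996 and 4.15 in the acute phase, 0.185, 0.383 and 0.531 in remission and 1.14, 0 and 1.02 in the chronic phase. Both Ifitm genes were near 0 in control apart from Ifitm3 in control replicate 3. Rtp4, a Golgi chaperone of receptors, stood at 3.27, 2.98 and 3.02 CPM in control mice, 28.02, 25.6 and 23.1 in the acute phase, 2.58, 4.4 and 3.98 in remission and 2.95, 2.52 and 8.67 in the chronic phase. All acute mice lay above control and remission mice for the 4 genes, and Bst2 in chronic replicate 3 equalled the lowest acute mouse to 3 digits. The acute difference was 4.96 ± 0.60 for Ifitm3 (adjusted p = 6.74e-05), 3.04 ± 0.34 for Rtp4 (adjusted p = 5.35e-07) and 2.15 ± 0.45 for Bst2 (adjusted p = 0.0017). Rtp4 was the steadiest in the acute mice, at 25.6 ± 2.45 CPM (SD, n = 3). Ifitm2 had 0 counts in control and was at least 31.6-fold higher in acute (adjusted p = 3.29e-05) and at least 3.75-fold higher in chronic mice (adjusted p = 0.0414), against a floor of 3 counts over the 3 control libraries that covers counting error only. Of its 75-base windows 42% recur in other genes, 33.4% in the overlapping Gm45717, so its values are uncertain.

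Parp9, Dtx3l and Parp14 lie together on chromosome 16 and encode an ADP-ribosyltransferase pair and a ubiquitin ligase, and Rnf213 (chromosome 11) encodes the giant ligase named above. Parp9 stood at 21.9, 25.9 and 25.2 CPM in control mice, 104, 87.9 and 102 in the acute phase, 30.1, 27.9 and 31.3 in remission and 29.3, 40.7 and 61.98 in the chronic phase. Dtx3l stood at 31.3, 32.6 and 33.7 CPM in control mice, 130.5, 129 and 97.5 in the acute phase, 48.2, 44.4 and 51.3 in remission and 39.5, 54.7 and 80.1 in the chronic phase. Parp14 stood at 78.7, 69.04 and 82.6 CPM in control mice, 326, 248 and 248 in the acute phase, 82.5, 85.1 and 122 in remission and 96.02, 112 and 135 in the chronic phase. The 3 genes had the same order of groups, acute highest and control lowest. Rnf213 stood at 218, 187 and 242 CPM in control mice, 934, 1062 and 726 in the acute phase, 241, 220 and 341 in remission and 259, 257 and 442 in the chronic phase. These 4 were abundant and even: every acute mouse stood above all other mice, every chronic mouse stood above every control mouse, and the acute differences lay between 1.84 ± 0.17 (Parp14, adjusted p = 3.74e-08) and 2.07 ± 0.23 (Rnf213, adjusted p = 5.44e-06). In the chronic phase Parp9 (log2 fold change 0.85 ± 0.20, adjusted p = 0.0056), Dtx3l (log2 fold change 0.83 ± 0.19, adjusted p = 0.00615) and Parp14 (log2 fold change 0.57 ± 0.17, adjusted p = 0.0223) were higher than control, and Rnf213 was not called (log2 fold change 0.56 ± 0.23, adjusted p = 0.119). Parp9 and Dtx3l overlap on opposite strands over 9.4 and 8% of their exonic bases, and the libraries do not keep the strand, so reads from that overlap cannot be assigned.

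The last 7 members have nuclear, mitochondrial, secreted or less known roles. Lgals3bp (chromosome 11, 118392751 to 118402092, minus strand) stood at 57.3, 46.1 and 62.8 CPM in control mice, 368, 308 and 353 in the acute phase, 212, 203 and 265 in remission and 349, 191 and 268 in the chronic phase. Ifi44, a GTP-binding protein of uncertain role, stood at 1.14, 0.526 and 0.432 CPM in control mice, 22.8, 20.8 and 10.97 in the acute phase, 2.21, 2.68 and 8.77 in remission and 6.81, 4.14 and 9.44 in the chronic phase. Sp100, a component of nuclear bodies, stood at 21.1, 18.8 and 20.9 CPM in control mice, 94.9, 80.7 and 77.4 in the acute phase, 20.3, 26.4 and 30.8 in remission and 33.1, 27.6 and 44.1 in the chronic phase. For Lgals3bp and Ifi44 every mouse with EAE stood above every control mouse, and for Sp100 this held of the acute and chronic mice. Lgals3bp was higher than control by 2.63 ± 0.19 in acute (adjusted p = 8.02e-09), 2.03 ± 0.19 in remission (adjusted p = 1.45e-06) and 2.28 ± 0.19 in chronic mice (adjusted p = 3.18e-07). Its chronic level was not called different from the acute one (log2 fold change -0.35 ± 0.18, adjusted p = 0.164), chronic replicate 1 lying within the acute range. Ifi44 was higher than control by 4.58 ± 0.57 in acute (adjusted p = 6.65e-06), 2.51 ± 0.63 in remission (adjusted p = 0.0176) and 3.13 ± 0.60 in chronic mice (adjusted p = 0.00178). Sp100 was higher by 2.06 ± 0.18 in acute (adjusted p = 1.29e-08) and 0.78 ± 0.18 in chronic mice (adjusted p = 0.00495).

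Xaf1, which promotes cell death, stood at 8.96, 7.01 and 6.91 CPM in control mice, 32.2, 27.97 and 22.5 in the acute phase, 8.68, 10.5 and 12.5 in remission and 7.49, 12.8 and 9.95 in the chronic phase. Phf11d, a zinc finger protein, stood at 9.96, 9.99 and 7.98 CPM in control mice, 29.1, 15.2 and 13.6 in the acute phase, 8.68, 9.56 and 13.6 in remission and 7.72, 9.72 and 14.3 in the chronic phase. Ifi35, which pairs with another interferon-induced protein, stood at 6.68, 7.01 and 7.55 CPM in control mice, 12.4, 9.06 and 11.3 in the acute phase, 9.23, 6.696 and 6.38 in remission and 5.902, 9.72 and 11.2 in the chronic phase. Xaf1 in acute mice was more than every other mouse, while Phf11d in acute replicate 3 and the highest remission and chronic mice was alike. Ifi27l2a, a small mitochondrial protein, stood at 1.85, 2.63 and 2.37 CPM in control mice, 12.7, 14.4 and 13.04 in the acute phase, 2.21, 0.191 and 3.45 in remission and 1.59, 3.42 and 15.6 in the chronic phase. In all 4 genes the acute mice lay above every control mouse, and chronic replicate 3 of Ifi27l2a was above every acute mouse. The acute rise was 2.55 ± 0.76 for Ifi27l2a (adjusted p = 0.0185), 1.84 ± 0.23 for Xaf1 (adjusted p = 1.86e-06) and 1.05 ± 0.29 for Phf11d (adjusted p = 0.00567). Ifi35 was not called (log2 fold change 0.63 ± 0.27, adjusted p = 0.0657). The Phf11d call was lost without acute replicate 1 (adjusted p = 0.0924), and that of Ifi27l2a without any 1 of the control replicates (0.071, 0.0506 and 0.055 for replicates 1, 2 and 3).

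By their calls the members fell into a large set that rose in acute mice and a small set that was also above control later. For 20 members the sole calls were higher in acute than control and lower in remission and in chronic than in acute. For 5 members all 3 phases were above control. The difference of the remission mean from control was 59.7% of the acute difference for Lgals3bp, 30% for Oas1a, 22% for Ifi44, 11.9% for Oasl2 and 10.2% for Ifi204. In the chronic phase it was 74.4, 45.3, 34.9, 17.8 and 25.5%. Ifitm3 stood in remission at 0.706% of its acute difference, Isg15 at 0.272% and Rtp4 at 2.51%, and in 10 members, among them Ifit1, Ifit3 and Mx1, the remission mean lay below that of control.

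The calls of remission and chronic phase varied in how far they rest on single mice or on the scaling. In each of the 20 alternative fits, 8 with other settings and 12 without 1 mouse, Lgals3bp, Oasl2 and Ifi204 were higher than control in remission. Oas1a lost that call without control replicate 1 (adjusted p = 0.0728), control replicate 2 (0.158) or remission replicate 3 (0.13) and with library totals alone (0.0687), and Ifi44 with limma-voom (0.0607) and without control replicate 2 (0.0904), control replicate 3 (0.0761) or remission replicate 3 (0.0809). In the chronic phase Eif2ak2, Ifi204, Ifi44, Lgals3bp, Oas1a, Oas1g and Oasl2 were higher than control in each of these fits. Parp14 lost that call without control replicate 1 (adjusted p = 0.0613), control replicate 2 (0.114) or chronic replicate 3 (0.119). With library totals alone Parp9 (adjusted p = 0.0618), Dtx3l (0.0724), Sp100 (0.128) and Parp14 (0.391) were not called. Oas2 lost it without 8 of the 12 mice, taken 1 at a time (adjusted p from 0.0562 to 0.135), among them every control mouse. It also lost it with no filter (0.114), limma-voom (0.0733) and the number in the sample title as a covariate (0.0619). Ifitm2 lost it without 9 of them (0.0504 to 0.127), again including every control mouse. With limma-voom its log2 fold change was 1.70 and not called (adjusted p = 0.388), nor was it called with the title number as a covariate (0.0548). With only the 2 groups compared Ifitm2 did not pass the filter.

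Of the 36 falls from acute to remission 31 held in each of the 20 fits, and of the 32 falls from acute to chronic 22 did. The fall of Lgals3bp to remission was lost without acute replicate 1 (adjusted p = 0.0635), remission replicate 1 (0.0519) or remission replicate 2 (0.0699). That of Phf11d was lost without acute replicate 1 (0.245), remission replicate 1 (0.0761) or remission replicate 2 (0.0719). For the chronic phase the fall of Phf11d was lost without acute replicate 1 (0.288), chronic replicate 1 (0.106) or chronic replicate 2 (0.095), and so was that of Mx1 (0.0644, 0.0646 and 0.0812). The same 3 mice and 1 more decided Oas1a and Ifi44 (acute replicate 2, 0.184 and 0.0709) and Rsad2 (chronic replicate 3, 0.0502). Ifit2 lost its call without chronic replicate 2 (0.0536) and Ifitm2 without acute replicate 1 (0.0621). With the number in the sample title as a covariate 23 of the 32 falls to the chronic phase were called. The 9 lost were those of Ifit2, Oas1a, Mx1, Rsad2, Phf11d and Ifi44, and those of Ifit3 (adjusted p = 0.0582), Oas2 (0.0585) and Dhx58 (0.0597), which each of the other 19 fits called. All 3 chronic mice have the number 1 and 2 of the 3 acute mice the number 2, so phase and number overlap in part. With library totals alone the falls to remission of Lgals3bp (adjusted p = 0.224), Mx2 (0.172), Phf11d (0.106) and Isg20 (0.0736) were lost. So were the falls to the chronic phase of Oas1a (0.0856) and Phf11d (0.0655). Other settings lost further calls against the chronic phase: Mx1 with no filter (0.0596), Rsad2 with no filter (0.0642) or limma-voom (0.0659), and Phf11d with only the 2 groups compared (0.0598).

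**Figure D3:**
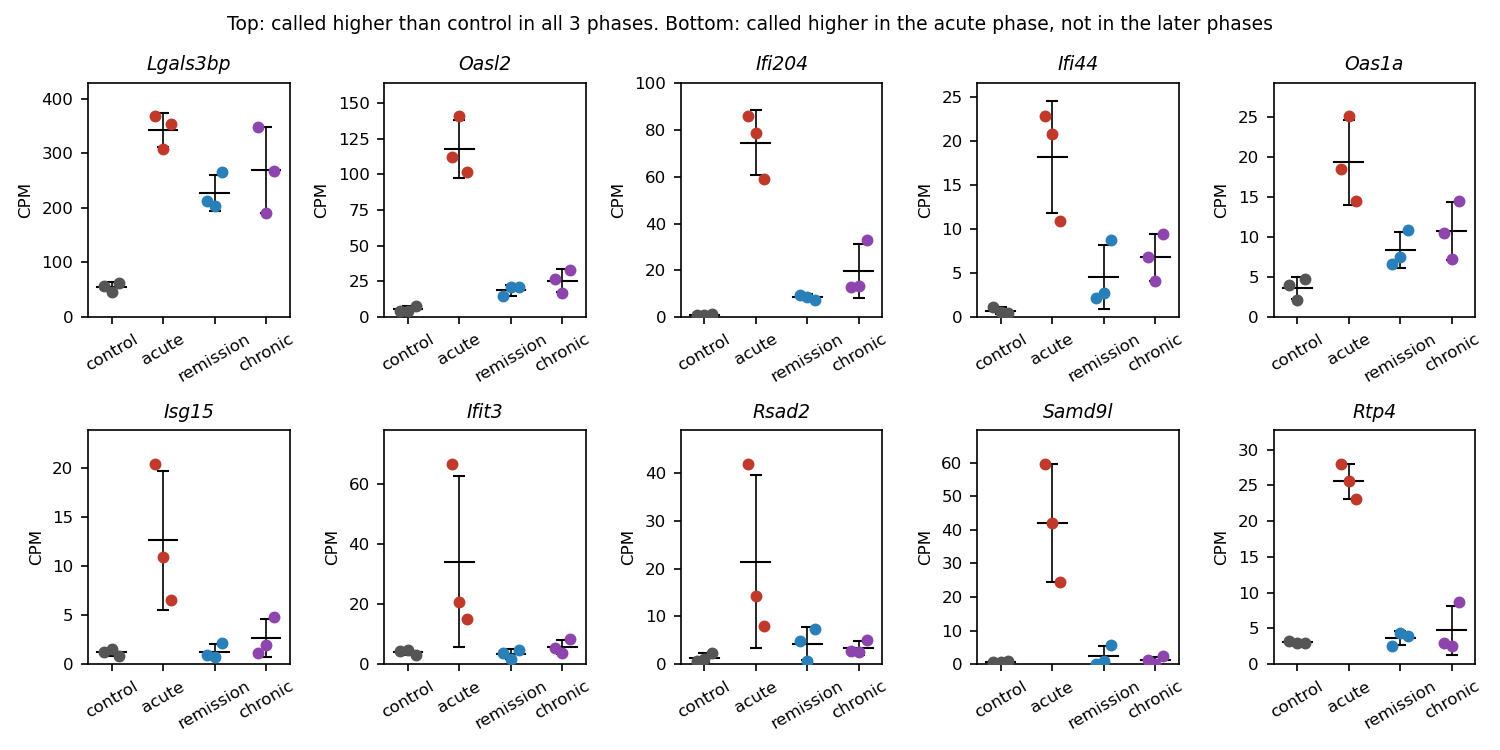
Level in CPM (linear axes from 0) of 10 members in each mouse, with the mean and SD of 3 mice per group. In the upper row (Lgals3bp, Oasl2, Ifi204, Ifi44, Oas1a) every mouse with EAE lies above every control mouse; in the lower row (Isg15, Ifit3, Rsad2, Samd9l, Rtp4) the acute mice lie above all others and the later phases were not called different from control.

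Levels of different genes can be set side by side only per length of transcript. In CPM per kilobase of exon, Lgals3bp ranked highest of the 40 in every group, at 19.5 in control mice, 120.4 in the acute phase, 79.7 in remission and 94.6 in the chronic phase. Ifitm3 went from rank 14 in control (2.78 CPM per kilobase) to rank 2 in acute mice (79.8), rank 17 in remission (3.32) and rank 6 in chronic mice (11.3). Ifi27l2a, short and so counted with few reads, ranked 5 in acute (28.9) and 3 in chronic mice (14.8), the latter on the strength of chronic replicate 3. These ranks are a description with no test. In 21 members the group means ran acute, chronic, remission and control from high to low, in 8 remission stood above chronic with control lowest, and in 10 others control stood above 1 or both of the later phases.

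Within a group the members tended to be high or low in the same mouse. Acute replicate 1 held the highest acute value of 35 of the 40 members and acute replicate 3 the lowest of 30. Remission replicate 3 was highest of its group in 35 members, chronic replicate 3 in 30, and control replicate 3 in 24, with control replicate 2 lowest in 24. The monocyte sum had the same order in acute mice, 2165, 1838 and 1475 CPM, and its remission value was lowest in replicate 3, at 4.52 CPM. In control mice it was 6.26, 8.24 and 39.9 CPM, highest in replicate 3 and lowest in replicate 1. In chronic mice it was 17.9, 6.66 and 16.8 CPM. The part of monocytes in these orders was not tested.

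The genes upstream of the members were read from a list of 56, of which 34 could be tested. In acute mice 14 were higher than control and 7 lower, in remission 2 and 3, and in chronic mice 4 and 2. Over all tested genes the shares higher and lower were 23.7 and 20% in acute mice, 6.06 and 3.25% in remission and 9.57 and 5.17% in chronic mice. The pathway's counts lower in acute, higher in remission, and both higher and lower in chronic mice stood near that background. The interferons themselves were hardly seen. Of 18 type I interferon genes, 14 had 0 counts in all 12 libraries. Ifnb1 and Ifna13 had 1 count each in remission and Ifna11 1 in an acute mouse, and Ifnk, found in 2 of the 3 libraries of each group, stayed at or under 1.04 CPM. Ifng was at 2.08, 4.53 and 1.78 CPM in the acute mice and had no count in any other library, an amount too small to pass the filter. A count of 0 in a group allows up to 0.173 CPM in control mice, 0.273 in the acute phase, 0.208 in remission and 0.216 in the chronic phase.

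The receptor chains did not move in the same direction. Of 6, 2 were higher in acute mice and 1 lower, near the shares of all tested genes (23.7% higher and 20% lower). Ifnar1 stood at 93.03, 86.04 and 91.9 CPM in control mice, 153, 127 and 159 in the acute phase, 117, 112 and 118 in remission and 105, 106 and 108 in the chronic phase. It was higher in acute than in control mice (log2 fold change 0.70 ± 0.12, adjusted p = 5.79e-05), all acute mice lying above all others. Ifngr1, of the interferon gamma receptor, was lower than control in the acute phase (log2 fold change -0.63 ± 0.13, adjusted p = 4.89e-04), in remission (log2 fold change -0.45 ± 0.13, adjusted p = 0.0297) and in the chronic phase (log2 fold change -0.45 ± 0.13, adjusted p = 0.0212). Ifnlr1, of the lambda receptor, rose in acute mice from a very low level (log2 fold change 3.70 ± 0.58, adjusted p = 3.18e-05). For Ifnar2 the difference of acute from control was -0.33 ± 0.14 with an adjusted p of 0.0559.

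Of 5 kinases and factors of interferon signalling, 3 were called higher than control in the acute phase: Stat2, Jak2 and Irf9. Of these, Stat2 was also higher in the chronic phase. Stat2 stood at 37.3, 24.4 and 38.2 CPM in control mice, 159.8, 162 and 126 in the acute phase, 37.1, 44.4 and 47.01 in remission and 44.3, 66.6 and 109 in the chronic phase. It was higher than control in acute (log2 fold change 2.16 ± 0.29, adjusted p = 7.25e-05) and in chronic mice (log2 fold change 1.13 ± 0.28, adjusted p = 0.0194), with chronic replicate 3 the highest outside the acute group. Jak2, whose product is not among the type I receptor kinases named above (JAK1 and TYK2), rose in the acute phase (log2 fold change 2.17 ± 0.19, adjusted p = 4.64e-08). Irf9 rose slightly (log2 fold change 0.36 ± 0.13, adjusted p = 0.0338), and with library totals as the sole scaling its difference turned to -0.19.

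Of 16 genes that lead to interferon production, 6 were higher and 5 lower in acute mice, where 23.7% of all tested genes were higher and 20% lower. Irf7, the factor that amplifies interferon production and is itself interferon induced, stood at 7.97, 4.91 and 9.93 CPM in control mice, 106, 74.3 and 51.3 in the acute phase, 7.57, 7.46 and 9.56 in remission and 9.99, 8.82 and 20.4 in the chronic phase. It was higher than control in acute mice (log2 fold change 3.35 ± 0.35, adjusted p = 5.12e-06), all of which lay above every other mouse, and fell again in remission (log2 fold change -3.25 ± 0.35, adjusted p = 1.24e-05) and in the chronic phase (log2 fold change -2.59 ± 0.34, adjusted p = 8.25e-05). Its differences from control there, 0.11 ± 0.39 and 0.77 ± 0.38, were not called. Ikbke, a kinase of IRF3 and IRF7, stood at 3.13, 1.402 and 1.51 CPM in control mice, 61.2, 78.1 and 67.6 in the acute phase, 15.9, 15.1 and 15.4 in remission and 15.4, 16.4 and 15.1 in the chronic phase. Zbp1, a sensor of Z-form nucleic acid, stood at 3.27, 3.33 and 2.81 CPM in control mice, 83.8, 95.4 and 109 in the acute phase, 9.598, 13.2 and 12.8 in remission and 19.98, 24.5 and 64.8 in the chronic phase. For both genes every mouse with EAE was above every control mouse, and remission and chronic mice had nearly the same Ikbke. Ikbke was higher than control in acute (log2 fold change 5.02 ± 0.23, adjusted p = 1.91e-12), remission (log2 fold change 2.86 ± 0.24, adjusted p = 1.44e-07) and chronic mice (log2 fold change 2.88 ± 0.25, adjusted p = 8.65e-08), and so was Zbp1 (log2 fold change 4.91 ± 0.46, adjusted p = 8.38e-06 in acute, log2 fold change 1.89 ± 0.51, adjusted p = 0.0435 in remission, log2 fold change 3.50 ± 0.47, adjusted p = 5.05e-04 in chronic mice). Myd88, Tbk1 and Trim25 were also higher in acute mice. Lower in acute mice were Tmem173, which encodes STING (log2 fold change -0.91 ± 0.20, adjusted p = 0.00178), Irf3 (log2 fold change -0.80 ± 0.18, adjusted p = 9.31e-04), Cgas (log2 fold change -0.77 ± 0.21, adjusted p = 0.00497), Ticam1 and Tlr9.

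Among inhibitors, Socs1, which blocks JAK kinases, rose from 0.427, 0.3505 and 0.647 CPM in control to 18.7, 15.7 and 12.4 CPM in acute mice (log2 fold change 5.001 ± 0.62, adjusted p = 3.10e-06). Samhd1, which breaks down nucleotides, rose from 68.4, 84.6 and 85.5 CPM to 401, 428 and 338 CPM (log2 fold change 2.29 ± 0.19, adjusted p = 4.46e-08), with every acute mouse above all others. Adar, which edits double-stranded RNA and hides it from MDA5, was higher in acute (log2 fold change 0.93 ± 0.13, adjusted p = 5.09e-06) and in chronic mice (log2 fold change 0.40 ± 0.13, adjusted p = 0.0386). Pias1 was lower in acute mice (log2 fold change -0.56 ± 0.17, adjusted p = 0.0124), and Trex1 had 0 counts in all 12 libraries.

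**Figure D4:**
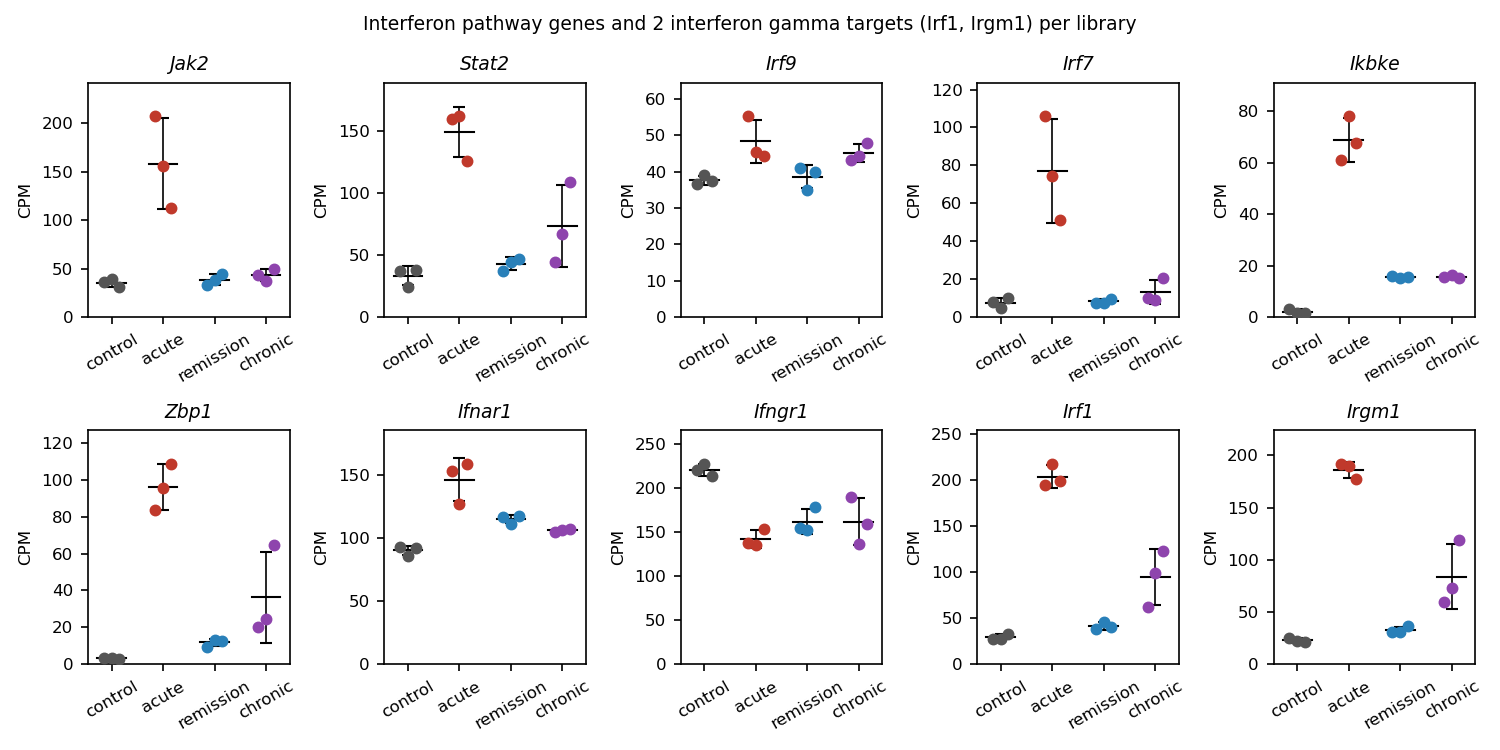
Level in CPM (linear axes from 0) of interferon pathway genes (Jak2, Stat2, Irf9, Irf7, Ikbke, Zbp1, Ifnar1, Ifngr1) and of the interferon gamma targets Irf1 and Irgm1 in each mouse, with the mean and SD of 3 mice per group. Irf7 is high in the acute mice, at 51.3 to 106 CPM; Irf1 and Irgm1 are higher in each chronic mouse than in each remission mouse.

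Targets of interferon gamma were read beside the members, from a list of 22 genes such as the guanylate-binding proteins and immunity-related GTPases. Of these 21 were higher than control in acute, 3 in remission (Iigp1, Cxcl9 and Cd274) and 16 in chronic mice. Over all tested genes 23.7, 6.06 and 9.57% were higher in these phases. Their sum was 527, 539 and 549.8 CPM in control mice, 3056, 3584 and 3166 in the acute phase, 612, 727 and 628 in remission and 593, 1259 and 1635 in the chronic phase. Chronic replicate 1 lay below every remission mouse and the other 2 chronic mice above them. Between chronic and remission 3 of the 22 were called, all higher in the chronic phase: Irgm1 (log2 fold change 1.36 ± 0.19, adjusted p = 0.00251), Irgm2 (log2 fold change 1.05 ± 0.24, adjusted p = 0.0454) and Irf1 (log2 fold change 1.20 ± 0.19, adjusted p = 0.00531). Over all tested genes 0.941% were higher in that comparison. The members had 0 of 39 called there, and whether the lists differ was not tested. Among acute mice replicate 1, which was highest for most members, had the lowest sum of these targets.

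Reads that fit more than 1 gene limit some members. More than 10% of the 75-base windows of the transcripts recur elsewhere for 8 of the 40: Oas1a (47.6%, all with Oas1g), Ifitm2 (42%), Ifit3 (41.1%, with Ifit3b), Oas1g (36.9%), Ifit3b (35.7%), Ifi204 (13.2%), Herc6 (11.3%) and Rtp4 (10.5%). For such pairs the split of reads between the genes is uncertain. By contrast 17 members shared no window with another gene.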

How the data were processed

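RNA of sorted spinal cord microglia was reverse transcribed with random primers, made into unstranded libraries by tagmentation, and sequenced as single reads of 75 bases on a single flow cell, per the labels' protocols. Per the submitters' processing notes, the reads were handled with HISAT2, SAMtools 1.3.1, Picard 2.6.4 and HTSeq 0.6.1 on GRCm38. The version of HISAT2, the settings of HTSeq and the annotation release were not given in the sources used here. The authors deposited raw read counts for each gene, and the 12 single files equalled their columns of the merged table.

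Samples were grouped by the phase in the labels. Genes were filtered with filterByExpr in edgeR 4.0.16 (R 4.3.3), library sizes were the counts of the 12545 genes kept, and TMM factors were applied. A model of the 4 groups over all 12 libraries gave 6 comparisons tested by robust quasi-likelihood in edgeR; p-values were adjusted over all genes by Benjamini and Hochberg, and 0.05 was the threshold for a call. CPM were computed with the TMM factors, and the standard error is the log2 fold change over the root of F. For a group with 0 counts a floor of 3 counts in all was used, which covers counting error only. Each p tests a difference between groups against a spread between mice that was estimated over all 12 libraries and moderated across genes. Counts were also simulated from the control means, with 50 genes changed per fold and the same spread for every gene (dispersion 0.05). With 12076 genes tested for acute against control, 10% of 1.5-fold, 46% of 2-fold and 100% of 4-fold and 8-fold changes were recovered. Of 134 calls 6 were false. The changed genes were well counted in control, so these shares do not carry over to members that are sparse or vary more between mice.

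Alternatives were DESeq2's size factors, library totals alone, leaving out the top features, no filter, DESeq2 1.42.0, limma-voom (limma 3.58.1), only the 2 groups compared, the number in the sample title as a covariate, and leaving out each mouse. Values in every library are given for all 40 members. By the naming rule these are the 3 members of each role with the smallest p of any difference, those called in remission or chronic phase or lower in any comparison, those not called in acute mice and the member that failed the filter. Of other lists (upstream pathway, interferon gamma targets, markers of homeostatic microglia, monocytes, neutrophils, T and NK cells, plasmacytoid dendritic cells and B cells), counts, sums and the genes with the smallest p are given. Upstream genes were to be named for up to 4 per role, and those beyond that, such as Irf9, Myd88 and Trex1, were chosen after their values were seen. An upstream gene is not reported here and was left out of its list's counts. The members and lists were chosen with earlier results of these data known. Promoters come from RefSeq (GRCm38.p6), and coordinates from GENCODE M21 on GRCm38. Shared reads were estimated from identical 75-base windows of GENCODE transcripts. Differences between the Biozzi ABH genome and the reference were not tested.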

Additional observations from a re-analysis of the deposited data

Results flagged for a closer look

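The difference from control was lower in remission than in the acute phase for 36 of the 39 tested members, and lower in the chronic than in the acute phase for 32, by edgeR's test of the later phase against the acute phase in the model of all 4 groups. These are the falls listed above. For Isg20 in remission (log2 fold change -1.73 against 0.51 in the acute phase) and Ddx58 in the chronic phase (-0.63 against 0.51) the later difference had the other sign and was larger in size. Oas1g, Ddx58 and Ifi35 in remission, and Oas1g, Mx2, Isg20, Bst2, Ifi35, Ifi27l2a and Lgals3bp in the chronic phase, did not pass that test.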

How the results depend on the processing

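The acute rise was stable: 34 to 38 members were higher when any 1 mouse was left out, 34 to 36 under the 8 other settings, and 32 of 35 were called in all 20 fits (all but Ifi27l2a, Phf11d and Oas1g, the last of which did not pass the filter with only the 2 groups compared). The remission count of 5 was the least stable, at 10 with no filter, 9 with DESeq2, 8 with only the 2 groups compared, and 3 to 8 with 1 mouse left out (3 without control replicate 2 or remission replicate 3, 8 without chronic replicate 3). The chronic count of 13 ran from 10 to 13 with 1 mouse left out and was 9 with library totals alone and 17 with no filter or DESeq2. The count lower than control in the chronic phase was 1 (Ddx58) in place of 0 with library totals alone, with no filter and with only the 2 groups compared. The count higher in chronic than in remission was 5 with no filter, 1 with DESeq2, and 0 to 2 with 1 mouse left out. Falls from acute ran from 31 to 38 in remission and from 26 to 34 in the chronic phase with 1 mouse left out, and numbered 32 and 23 when the number in the title was fitted too. The cause of these changes was not tested.

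Over the members, 4374 of the refitted values kept their direction and side of the threshold, 74 newly passed it, 116 no longer did, 95 changed sign without being called in either fit, and 0 called values reversed. With library totals alone the acute differences of Ifngr2 (-0.40), Jak1 (-0.43) and Irf9 (-0.19) reversed, and the share of calls that were higher went from 47.6 to 71.2% between remission and acute, from 46.3 to 64.4% between chronic and acute and from 78.1 to 61.4% between chronic and remission. The summed control level was 800.0 CPM there. Without the top features, which makes library sizes smaller by construction, the sums were 1766 CPM in control mice, 8226 in the acute phase, 2721 in remission and 3347 in the chronic phase. No paired analysis was possible because the labels pair no mice across groups. Precision is limited by 3 mice a group and by 1266782 to 2496096 informative counts a library, so that a member changed less than 2-fold would often be missed. Larger differences also went uncalled where counts were few or the mice spread widely, such as those of Oas2, Oas3 and Oasl1 in remission. A member that was not called may therefore have changed more than 2-fold.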
